A study of Canis lupus familiaris with 6 samples.

Results

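The genes of apoptosis and necroptosis were examined in RasV12-transformed epithelial cells that grew either alone or surrounded by normal cells. The members are 37 genes, taken as the probes that carry their names on a canine expression array, with the brightest probe standing for each gene. By the array's own names, 27 of the 37 genes were found, on 41 probes, among 16222 gene names with a probe. A further 3 members had a probe under a RefSeq gene number (BAK1, BCL2L11) or in the array's description (RIPK1), and they are given beside the 27 and not counted with them. BOK, BBC3, BIK, FADD, CASP1, RIPK3 and MLKL, 7 genes in all, were matched to no probe and are not analysed here.

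The cells were MDCK-pTR GFP-RasV12 cells, a line made from Madin-Darby canine kidney (MDCK) epithelial cells that expresses GFP-tagged RasV12 when tetracycline is added. All 6 samples had 24 h of tetracycline and were sorted for GFP, 3 from culture of RasV12 cells alone and 3 from mixed culture with normal MDCK cells. In mixed culture the ratio of MDCK to RasV12 cells was 10 to 1 by the methods, but the source name of mixed replicate 2 has 100 to 1. The extraction text of the labels also names a truncated β-catenin. The sample titles name neither it nor RasV12. The paper's data statement lists this series under MDCK-pTR GFP-RasV12 cells without naming the truncated β-catenin, and that is followed here. RasV12 was carried by both groups, so no sample shows these genes without it, and the labels do not say whether replicates were separate cultures, so p-values measure the spread between these samples. The 3 arrays of culture alone were on 1 slide and the 3 of mixed culture on another, so an effect of the slide and an effect of mixed culture cannot be told apart.

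In the mitochondrial pathway of apoptosis, BH3-only proteins such as BAD, BID and NOXA (PMAIP1) act on the anti-apoptotic BCL2 proteins or directly on BAX and BAK, which open the outer mitochondrial membrane. Cytochrome c then leaves the mitochondria, joins APAF1 and activates caspase-9, while DIABLO relieves the block that XIAP places on caspases. In the receptor pathway, ligands such as TRAIL (TNFSF10) and receptors such as FAS recruit caspase-8 through adaptors, with FLIP (CFLAR) as a rival of caspase-8. Necroptosis, a lytic death, runs from RIPK1 through RIPK3 to MLKL when caspase-8 is not active. Much of this machinery is controlled at the level of the protein, by cleavage, binding or release, which an RNA array does not measure. Transformed cells that are extruded from an epithelium are known to leave it alive or dying according to the setting, and the comparison addresses whether the RNA of this machinery differed when normal cells were present.

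Signals are given on a log2 scale on which 0 is the 75th percentile of the array, so values of 1 probe can be compared between arrays but not values of different probes. The probes on which the results below turn, all 60 bases long, are printed because what was measured at each gene is the signal of these letters alone. They are written 5′ to 3′ as the array design lists them, with positions in canFam3. The TRADD probe lies on the plus strand at chr5:82210449-82210652, a span of 204 bases that crosses a splice junction, from base 613 of its transcript, ENSCAFT00000032460.
TRADD: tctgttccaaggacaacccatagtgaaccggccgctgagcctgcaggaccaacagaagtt
The TNFSF10 probe lies on the minus strand at chr34:36719251-36719310, from base 784 of its transcript, and the FAS probe on the plus strand at chr26:38757529-38757588, from base 342.
TNFSF10: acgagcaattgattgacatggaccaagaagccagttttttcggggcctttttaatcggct
FAS: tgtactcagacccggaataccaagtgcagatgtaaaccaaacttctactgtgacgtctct
CFLAR has a pair of probes on the plus strand of chromosome 37. The brighter one lies at chr37:10286139-10287758, a span of 1620 bases that crosses a splice junction, and is annotated to 2 transcripts, ENSCAFT00000045836 and ENSCAFT00000019278. The second lies further along at chr37:10306899-10306958 and is annotated to the latter transcript alone.
CFLAR brighter probe: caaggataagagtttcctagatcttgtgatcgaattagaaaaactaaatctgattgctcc
CFLAR second probe: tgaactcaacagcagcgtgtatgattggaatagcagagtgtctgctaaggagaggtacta
The BIRC3 probe lies on the minus strand at chr5:29325511-29325685, a span of 175 bases that crosses a splice junction.
BIRC3: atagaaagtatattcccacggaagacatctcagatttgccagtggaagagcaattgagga

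The arrays were of like brightness, with a 75th percentile of 592 to 700 in units of intensity, and the share of probes well above background ran from 60.8% to 66.4%. No spot was saturated. Replicate 1 of culture alone stood apart from its group. Over the members its median distance to the other 2 arrays of culture alone was 0.19 and 0.20 on the log2 scale, against 0.06 between those 2, and its distances to the 3 mixed arrays were smaller, from 0.11 to 0.15. Over all 26535 tested probes its distances were 0.18 and 0.19 to its own group and 0.18 to 0.20 to mixed culture. It was the array of culture alone farthest from the group's median at 19 of 25 members (76%) and at 62.3% of all tested probes. Both values are given where leaving it out changed a member's call or moved its difference by over 0.1.

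Of the 27 members, 25 exceeded background clearly on all arrays of culture alone, of mixed culture or of both, and were tested. BMF, a BH3-only gene, was well above background on 0 of 6 arrays and CASP4, an inflammatory caspase, on 1, and neither was tested. The reported limma fit does not pair the samples. With it and Benjamini-Hochberg adjustment over all tested probes, 2 of the 25 members passed an adjusted p of 0.05, cytochrome c (CYCS) and the adaptor TRADD. Both were lower in mixed culture. This is 8% of the members tested, where 11.2% of all tested probes were called (5.5% higher and 5.72% lower). By limma 0 members were higher at that threshold, whereas at an unadjusted p under 0.05 there were 2 higher and 4 lower, 6 in all, where 31.4% of all tested probes passed. The methods' t-test at the same unadjusted threshold gave 1 higher and 5 lower, where 27.6% of all tested probes passed, and after adjustment 1 member, CYCS, where 3.11% of all tested probes passed. By limma the replicate block, which pairs same-numbered samples, called 3 members (10.6% of all tested probes). These were CYCS and BIRC3, lower, and TNFSF10, higher, and TRADD was not among them. The normexp background correction called 3 members (14.9%), spike-in scaling 1 (3.58%) and the fit without a filter on dim probes 0 of 27 (0.0275%). At an unadjusted p under 0.05 the fit without that filter had 5 members, and 7821 of 43603 probes. The median difference of the 25 members was -0.02 on the log2 scale (mixed minus alone), beside 0.00 over all tested probes, and the median size of their differences was 0.17, as over all tested probes. At 8 of the 25 members (32%) the values of mixed culture lay wholly to 1 side of those of culture alone, which held for 37.2% of all tested probes. As bulk samples of sorted cells, these arrays cannot tell fewer cells with a transcript from less of it per cell.

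**Figure D1:**
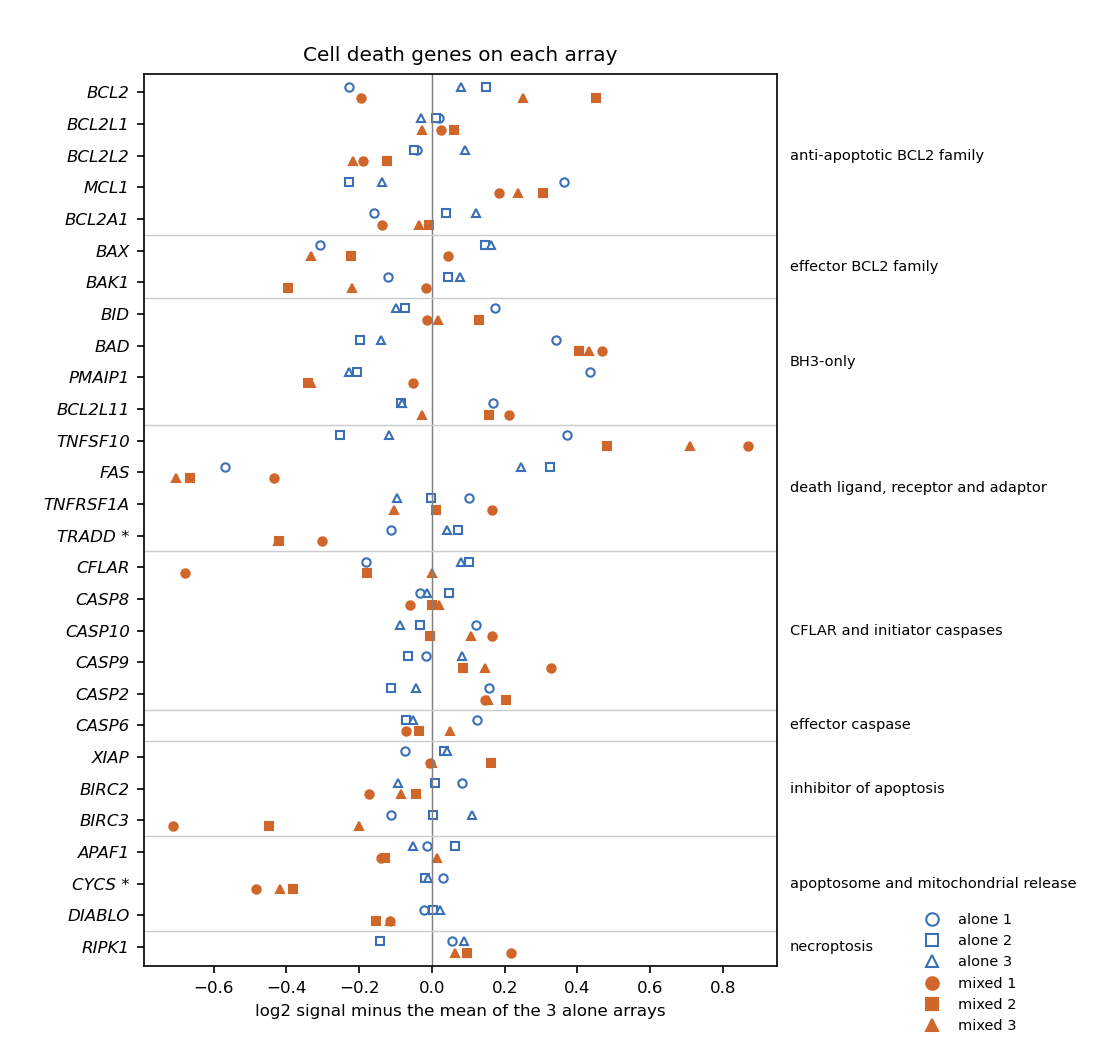
Log2 signal on each of the 6 arrays, minus the mean of the 3 arrays of culture alone, for the 25 tested members and the 3 named otherwise (BAK1, BCL2L11, RIPK1), by role. Open blue symbols are culture alone, filled orange symbols mixed culture, the shape gives the replicate, and an asterisk marks an adjusted p under 0.05 (CYCS, TRADD). Replicate 1 of culture alone (open circles) lies away from its 2 companions at genes such as MCL1, BAD, PMAIP1, TNFSF10 and FAS.

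Among the genes that act after the mitochondria are breached, CYCS fell. CYCS encodes cytochrome c, the respiratory protein that seeds the apoptosome once released. Its log2 signal was 7.26, 7.21 and 7.22 in culture alone and 6.75, 6.85 and 6.81 in mixed culture. Every mixed array was below every array of culture alone, by 0.43 on average (SE 0.0675, adjusted p = 0.0195), which is 1.35-fold lower. APAF1, the scaffold of the apoptosome, read -1.97, -1.89 and -2.01 alone and -2.10, -2.08 and -1.94 mixed. These overlapped, and the difference was -0.09 (95% interval -0.27 to 0.10, adjusted p = 0.497). DIABLO, which frees caspases from XIAP, had non-overlapping groups at its brighter probe, but its difference of -0.13 did not pass (95% interval -0.28 to 0.03, adjusted p = 0.225). Its other probe, which the array's annotation places on the opposite strand, differed by -0.11 (adjusted p = 0.534). Whether that probe reads the DIABLO transcript was not tested. All 3 genes of this group had a difference below 0, as had 13431 of 26535 tested probes. The test was passed by 1 of the 3, where 11.2% of all tested probes passed.

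The call of CYCS depended on which array was left out. Without replicate 1 of culture alone its adjusted p was 0.0128 and without replicate 1 of mixed culture 0.0403. Without alone replicate 2 or 3 it was 0.0874 and 0.0892, and without mixed replicate 2 or 3 it was 0.0826 and 0.098, with the difference between -0.45 and -0.40 in all these cases. With the replicate number as a block it was 0.0395, and without the filter on dim probes 0.0862. The size of the difference varied with the scaling: it was -0.35 with quantile normalization (adjusted p = 0.0289) and -0.59 with spike-in scaling (adjusted p = 0.0441). VDAC1 and VDAC2, which encode mitochondrial channel proteins, belong to the wider list described below. They were lower in every mixed array (differences of -0.29 and -0.23) and did not pass (adjusted p = 0.0556 and 0.0811). Groups that do not overlap were found at 37.2% of all tested probes. Of the 14 tested genes of their group, other BCL2 family genes and partners, 11 were below 0 and 3 above. Among all 26535 tested probes, 13431 were below 0. In that group 1 gene was called (7.14%), where 11.2% of all tested probes were called.

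In the death receptor group TRADD was lower in mixed culture, whereas TNFSF10 (difference 0.69), FAS (-0.60) and TNFRSF1A (0.02) did not pass the test. TRADD is the adaptor that joins TNF receptor 1 to RIPK1 and, further on, to FADD. It read 0.61, 0.79 and 0.76 in culture alone and 0.42, 0.30 and 0.30 in mixed culture. The groups did not overlap, and the difference of -0.38 (SE 0.0829, adjusted p = 0.0369) is 1.3-fold. The call held in 6 of 15 alternatives. With the replicate number as a block the adjusted p was 0.0631, with spike-in scaling 0.0745, without the filter on dim probes 0.126 and in the methods' t-test 0.0702. It was 0.0137 without replicate 1 of culture alone, and leaving out any other array ended the call: 0.136 without alone replicate 2, also 0.136 without alone replicate 3, and 0.053, 0.129 and 0.138 without mixed replicate 1, 2 and 3. The receptor on which TRADD acts, TNFRSF1A, read 1.06, 0.96 and 0.87 alone and 1.13, 0.97 and 0.86 mixed, a difference of 0.02 (95% interval -0.21 to 0.26, adjusted p = 0.887).

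TNFSF10 encodes TRAIL, a ligand of death receptors, and had the largest difference of the 25 members. It read 1.30, 0.67 and 0.80 in culture alone and 1.79, 1.41 and 1.63 in mixed culture. All 3 mixed arrays were above all 3 arrays of culture alone, although replicate 1 of culture alone came close to the lowest of them. The difference was 0.69 (1.61-fold, SE 0.183), with an adjusted p of 0.059, so it did not pass. It passed with the replicate number as a block (adjusted p = 0.0344), with the normexp background correction (0.0346) and without replicate 1 of culture alone, where the difference was 0.87 (adjusted p = 0.0117). In the other 12 alternatives it did not.

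TNFSF10 is known as a gene that interferon can induce, and interferon-stimulated genes moved with it. Of 28 such genes listed, 24 were tested, and by limma 14 (58.3%) were called higher in mixed culture and 0 lower. Of all tested probes, 5.5% were called higher and 5.72% lower. In value 3 of the 24 were below 0. The mean of the 24 genes, counted from the mean of culture alone, was 0.37, -0.25 and -0.12 on the arrays of culture alone and 0.85, 0.75 and 0.89 on the mixed arrays. Replicate 1 of culture alone was the highest of its group there, as it was for TNFSF10. The part of the interferon-stimulated genes in the TNFSF10 result was not tested.

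FAS, the receptor of FAS ligand, showed the widest spread among replicates of culture alone in this group. It read -3.10, -2.20 and -2.28 in culture alone and -2.96, -3.19 and -3.23 in mixed culture. Replicate 1 of culture alone lay among the mixed arrays, and the other 2 lay above all of them. With all 6 arrays the difference was -0.60 (95% interval -1.18 to -0.03, adjusted p = 0.145). Without that array it was -0.89 and passed (adjusted p = 0.00678). The probe was dim, and with the normexp correction the difference was -0.30 (adjusted p = 0.138).

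CFLAR, the catalytically dead relative of caspase-8 that restrains it, gave different outcomes at its pair of probes. The brighter probe read -1.52, -1.23 and -1.25 alone and -2.01, -1.51 and -1.34 mixed. The groups overlapped, and the difference of -0.29 did not pass (SE 0.184, adjusted p = 0.333). Without replicate 1 of mixed culture it was -0.09 (adjusted p = 0.679). The second probe read -2.40, -1.84 and -2.15 alone and -2.99, -2.88 and -2.70 mixed. Here all mixed arrays were below all arrays of culture alone, and the difference of -0.72 passed (1.65-fold lower, SE 0.157, adjusted p = 0.0369), and without replicate 1 of culture alone it was -0.86 (adjusted p = 0.0133). It was the single called probe besides those of CYCS and TRADD among 37 tested probes of the members. As in the sequences above, the second probe reports on 1 annotated transcript and the brighter on 2, and whether the probes differ from each other was not tested. The call of the second probe was lost in the methods' t-test (adjusted p = 0.111), with spike-in scaling (0.0677), without the filter on dim probes (0.116) and without any array other than replicate 1 of culture alone (0.0904 to 0.123).

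No initiator caspase passed. CASP8, which starts the receptor pathway, was among the most even members, at -1.01, -0.93 and -0.99 alone and -1.04, -0.98 and -0.96 mixed. The difference was -0.01 (95% interval -0.18 to 0.15, adjusted p = 0.913), and as a ratio of mixed to alone the interval ran from 0.885 to 1.11. CASP9, which starts the mitochondrial pathway, read -1.92, -1.97 and -1.82 alone and -1.58, -1.82 and -1.76 mixed. Its mixed arrays lay just above those of culture alone, by 0.19 (95% interval -0.03 to 0.40, adjusted p = 0.215). CASP10, a relative of CASP8, differed by 0.09 (adjusted p = 0.531). CASP2, a caspase linked to DNA damage and p53, had 4 tested probes that ran from 0.17 at the brightest through 0.02 and -0.15 to -0.21, and none passed. Without replicate 1 of culture alone its brightest probe gave 0.25 (adjusted p = 0.0427). The effector caspase on the list, CASP6, differed by -0.02 (95% interval -0.22 to 0.18, adjusted p = 0.899).

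**Figure D2:**
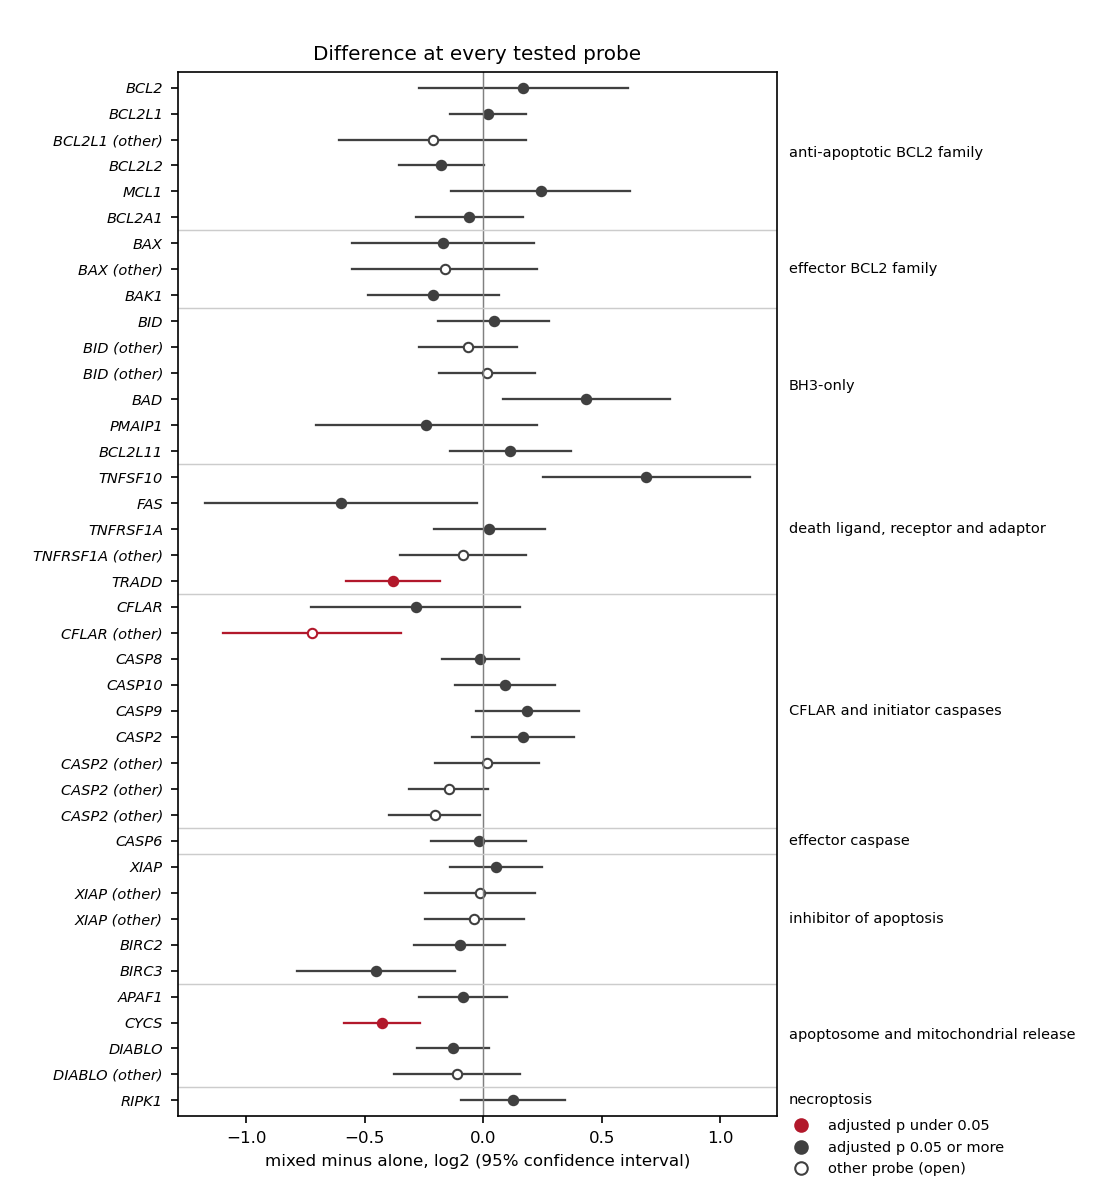
Difference between mixed culture and culture alone (log2, points) with its 95% confidence interval (bars) at the 37 tested probes of the members and the 3 probes of BAK1, BCL2L11 and RIPK1, by role. Filled points are the brightest probe of a gene, open points its other probes, and red marks an adjusted p under 0.05, which CYCS, TRADD and the second CFLAR probe reached.

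The BCL2 family held no called gene. Of its 5 anti-apoptotic members, 3 had a difference above 0 and 2 below, and BCL2L1 turned to -0.14 with spike-in scaling. BCL2, the founding member, read 1.21, 1.59 and 1.52 alone and 1.24, 1.89 and 1.69 mixed. These groups overlapped, with a difference of 0.17 (95% interval -0.27 to 0.61, adjusted p = 0.575), or 0.05 without replicate 1 of culture alone. BCL2L1, which encodes BCL-XL, was the steadiest, at 3.96, 3.95 and 3.92 alone and 3.97, 4.01 and 3.92 mixed. Its difference was 0.02 (95% interval -0.14 to 0.18, adjusted p = 0.867), and its dimmer probe gave -0.21 (adjusted p = 0.419). MCL1, a short-lived survival protein, read 4.37, 3.78 and 3.87 alone and 4.19, 4.31 and 4.24 mixed. Replicate 1 of culture alone was above all 3 mixed arrays and its companions were below them. With it the difference was 0.24 (95% interval -0.14 to 0.62, adjusted p = 0.342) and without it 0.42 (adjusted p = 0.0155). BCL2L2 and BCL2A1 differed by -0.18 and -0.06 (adjusted p = 0.163 and 0.706).

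The effectors that open the mitochondrial membrane overlapped between the cultures. BAX read 2.16, 2.61 and 2.63 alone and 2.51, 2.25 and 2.14 mixed, a difference of -0.17 (95% interval -0.55 to 0.22, adjusted p = 0.514), and its other probe gave -0.16. Without replicate 1 of culture alone the difference was -0.32 (adjusted p = 0.11). BAK1 read 1.77, 1.94 and 1.97 alone and 1.88, 1.50 and 1.68 mixed, a difference of -0.21 (95% interval -0.49 to 0.07, adjusted p = 0.263). Replicate 1 of culture alone was the lowest of its group and replicate 1 of mixed culture the highest of its group for both genes.

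Among the BH3-only genes, BAD had the largest difference. BAD, whose protein binds BCL-XL when it is not phosphorylated, read 0.42, -0.12 and -0.06 alone and 0.55, 0.48 and 0.51 mixed. The groups did not overlap, with replicate 1 of culture alone just under the mixed arrays. The difference was 0.43 (1.35-fold, 95% interval 0.08 to 0.79, adjusted p = 0.103), and without that array it was 0.60 (adjusted p = 0.00564). PMAIP1, a p53 target that encodes NOXA, read 3.03, 2.39 and 2.37 alone and 2.55, 2.26 and 2.27 mixed. Replicate 1 was the highest of both groups, and the difference was -0.24 (95% interval -0.71 to 0.22, adjusted p = 0.44). Without replicate 1 of culture alone it was -0.024 (adjusted p = 0.883). BCL2L11, which encodes BIM, read 1.72, 1.47 and 1.47 alone and 1.77, 1.71 and 1.53 mixed, a difference of 0.11 (95% interval -0.14 to 0.37, adjusted p = 0.511), or 0.20 without replicate 1 of culture alone. BID, the substrate of caspase-8 that links both pathways, had 3 probes with differences of 0.04, 0.01 and -0.06, and none passed.

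Inhibitor of apoptosis genes included 1 whose groups did not overlap. BIRC3, which encodes cIAP2, a ubiquitin ligase of the TNF receptor complex and a target of NF-κB, read -0.54, -0.42 and -0.32 alone and -1.14, -0.87 and -0.62 mixed. The difference of -0.45 (1.37-fold lower, SE 0.14) missed the threshold (adjusted p = 0.0837), passed with the replicate number as a block (0.0456) and was -0.32 without replicate 1 of mixed culture. Its dimmer probe was well above background on 2 arrays of culture alone and 0 of mixed culture, and it was not tested. The neighbouring paralog BIRC2, which encodes cIAP1, differed by -0.10 (95% interval -0.29 to 0.09, adjusted p = 0.432). XIAP, the direct caspase inhibitor, read -0.37, -0.26 and -0.25 alone and -0.30, -0.13 and -0.29 mixed. Its difference was 0.05 (95% interval -0.14 to 0.25, adjusted p = 0.701), and its other probes gave -0.01 and -0.04.

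Of the necroptosis genes RIPK1 alone had a probe. RIPK1, the kinase at the branch between survival, apoptosis and necroptosis, read -1.37, -1.57 and -1.34 alone and -1.21, -1.33 and -1.36 mixed. The groups overlapped, and the difference was 0.13 (95% interval -0.09 to 0.34, adjusted p = 0.392).

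Over the 25 tested members, the 95% interval lay within 1.5-fold in either direction for 16 and within 2-fold for 23. The wider intervals were those of TNFSF10 and FAS. Of the 8 members with several tested probes, the other probe had the same sign as the brightest in 5 of 12 pairs. These 5 include the DIABLO pair, whose probes are placed on opposite strands. With replicate 1 of culture alone left out, 7 members were called: BAD, CASP2, MCL1 and TNFSF10 higher, and CYCS, FAS and TRADD lower. In that comparison 26.4% of 27757 tested probes were called. Without alone replicate 2 or 3 limma called 0 members, and 0.09% and 0.0263% of all tested probes. At an unadjusted p under 0.05 these fits had 4 and 3 members, and 5902 of 26673 and 5812 of 26585 probes. Without mixed replicate 2 or 3 limma called 0 members, and 0.0338% and 0.045% of all tested probes. At an unadjusted p under 0.05 both fits had 4 members, beside 6112 of 26603 and 6086 of 26668 probes. Without mixed replicate 1 limma called CYCS, and 7.46% of all tested probes.

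**Figure D3:**
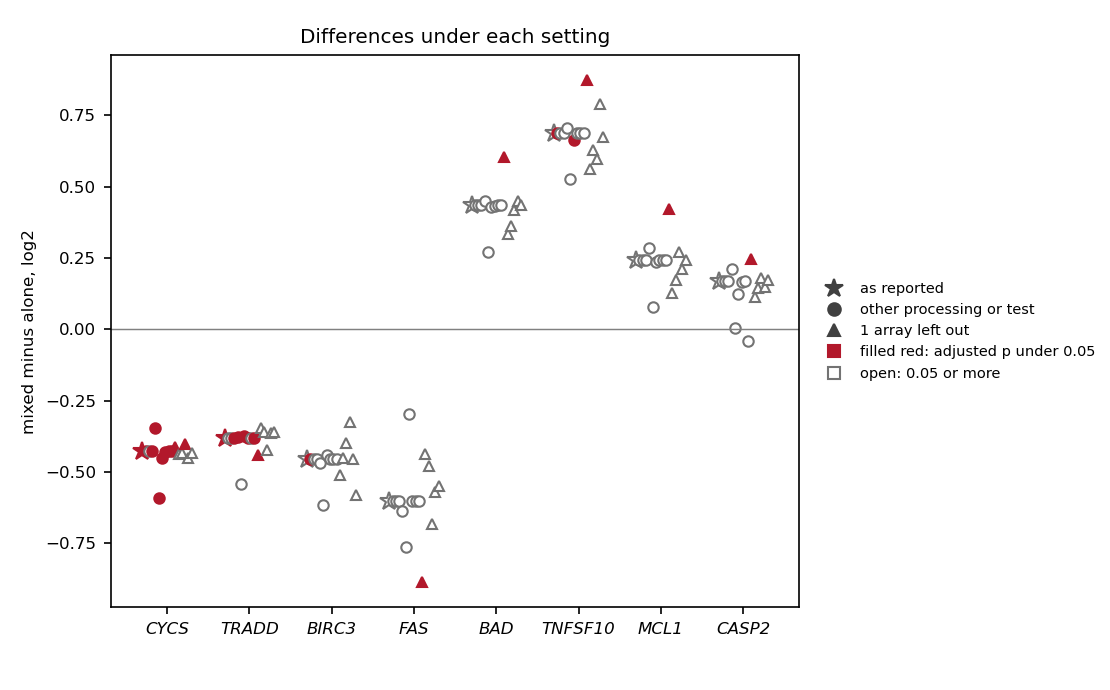
Difference between mixed culture and culture alone (log2) for 8 members under each setting: the reported fit (star), other processing or tests (circles) and 1 array left out (triangles). Filled red symbols passed an adjusted p of 0.05, and among the triangles FAS, BAD, TNFSF10, MCL1 and CASP2 passed in 1 case each, without replicate 1 of culture alone.

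The other genes of cell death were taken from a list of 114, of which 81 had a probe and 67 were tested. Among them 7 were called (10.4%, against 11.2% of all tested probes), 4 higher and 3 lower. The median difference of the 67 was -0.045. The groups did not overlap at 25 of them (37.3%, against 37.2% of all tested probes).

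Of the 3 that were lower, CRADD, the adaptor that carries caspase-2 into the PIDDosome, had the largest fall on the list. It read -0.89, -0.98 and -0.98 alone and -1.81, -1.66 and -1.79 mixed. All mixed arrays were below all arrays of culture alone, by 1.75-fold (difference -0.80, SE 0.0758, adjusted p = 0.0111). STK4, a Hippo pathway kinase that caspases cleave, fell by 0.58 (adjusted p = 0.0248) and at its other probe by 0.70 (adjusted p = 0.0183). BNIP2, a partner of BCL2, fell by 0.54 (adjusted p = 0.0241). Those that were higher were RBCK1, a subunit of the linear ubiquitin ligase (0.55, adjusted p = 0.0402), TAB3, which binds ubiquitin chains for TAK1 (0.48, adjusted p = 0.0424), MAP3K5, the kinase ASK1 (0.39, adjusted p = 0.023), and ACIN1, a nuclear caspase substrate (0.28, adjusted p = 0.0438). The other probes of RBCK1, TAB3 and MAP3K5 gave 0.35, 0.14 and 0.45 and did not pass (adjusted p = 0.0583, 0.367 and 0.059). The 3 other probes of ACIN1 gave 0.37 (adjusted p = 0.0397), 0.04 and -0.07 (adjusted p = 0.907 and 0.67), and with the mean over its probes the call was lost (0.16, adjusted p = 0.308). Among the 14 tested genes of the TNF receptor complex, to which RBCK1, TAB3 and MAP3K5 belong, 8 were below 0 in value. The brightest probe of CHUK, a kinase that activates NF-κB, differed by -0.46 and did not pass (adjusted p = 0.0696). Its dimmer probes gave -0.51, which passed (adjusted p = 0.0471), and -0.25 and -0.15, which did not (0.212 and 0.416). None of the 5 tested genes of necroptosis and pyroptosis on the list was called, with 1 at an unadjusted p under 0.05. All of these 7 calls were lost without alone replicate 2 or 3 or mixed replicate 2 or 3, and with the replicate number as a block those of TAB3 (adjusted p = 0.0609) and ACIN1 (0.0631) were lost.

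**Figure D4:**
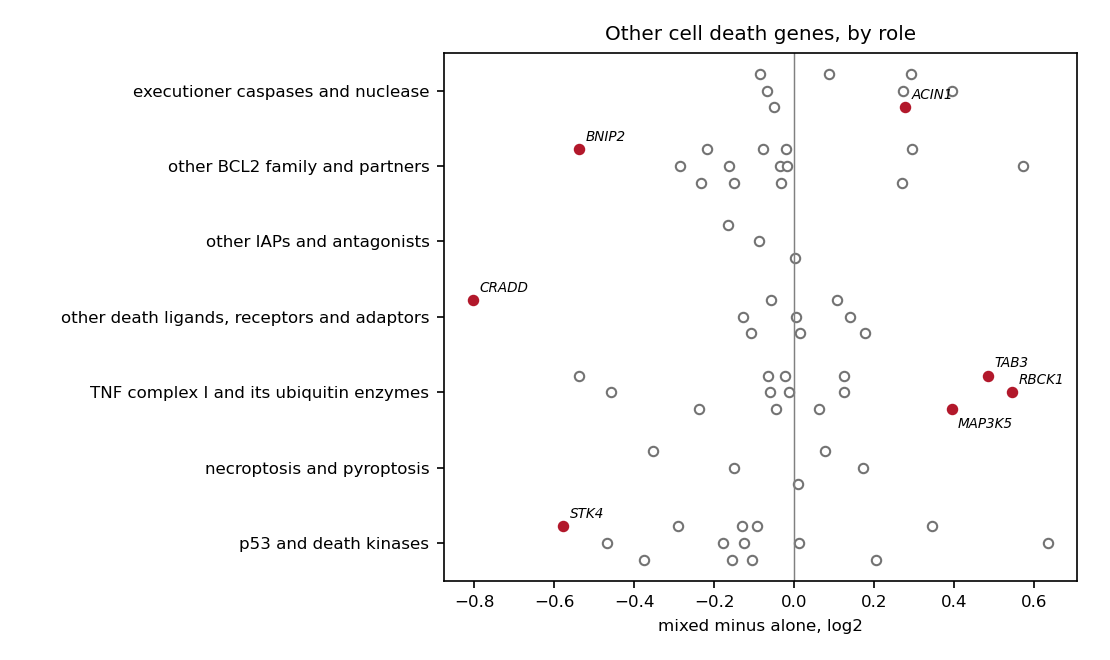
Difference between mixed culture and culture alone (log2) at the brightest probe of the 67 other cell death genes tested, by role. Filled red points are the 7 genes with an adjusted p under 0.05, named beside them, 4 above 0 and 3 below.

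The labelled cell type was checked against markers. The 9 epithelial and kidney markers with a probe (among them EPCAM, KRT18, CDH1, PAX8 and CDH16) were well above background on all 6 arrays. Their mean, counted from that of culture alone, was 0.09, -0.06 and -0.03 in culture alone and 0.34, 0.34 and 0.32 in mixed culture. That mean includes CLDN2, the 1 called gene of the 9, which was higher by 2.49 (adjusted p = 0.0103). The median difference of the 9 was 0.13, with 6 above 0 and 3 below, the lowest at -0.37. By limma 4 of them had an unadjusted p under 0.05, where 31.4% of all tested probes did. The groups did not overlap at 5 (55.6%, against 37.2% of all tested probes). The leukocyte markers PTPRC and LYZ and the fibroblast markers COL3A1 and PDGFRA were well above background on 0 arrays, whereas 2 of 7 leukocyte markers (CD14 and CD79A) and 6 of 9 fibroblast and endothelial markers (among them COL1A1 and PECAM1) were so on all 6. Of 3 leukocyte markers and 6 fibroblast and endothelial markers tested, limma called 0 in each list, with 0 and 1 at an unadjusted p under 0.05. Of 11 tested genes known to respond to cell dissociation, 4 were called higher in mixed culture (EGR1, ATF3, FOS and DUSP1) and 1, DNAJB1, lower. Of 6 tested genes of Ras-MAPK output, 2 were called lower (CCND1 and EPHA2). These are 45.5% and 33.3% of the genes tested, where 11.2% of all tested probes were called. The part of these lists in the results for the cell death genes was not tested.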

How the data were processed

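RNA of 6 samples was hybridised in 1 colour to Agilent canine arrays. Per the labels and the file headers, the authors deposited Feature Extraction 10.10.1.1 output (canFam3), whose processed signal is an intensity corrected for background, and a table of log2 values for 26529 probes, each column equal to the log2 processed signal minus a constant close to the array's 75th percentile. Their scaling and filter are not given in the sources used here.

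Here control spots and outlier flags were left out (12 of 43603 probes lost a value on an array), and the log2 processed signal minus each array's 75th percentile was used. A probe well above background on all arrays of 1 group was tested (26535 probes) with limma 3.58.1 in R 4.3.3 (lmFit and eBayes, two-sided, Benjamini-Hochberg over all tested probes, threshold 0.05). Python 3.11.15, pandas 2.3.3, numpy 2.4.6 and matplotlib 3.10.9 were used otherwise. The fit was tested on data simulated for this comparison (26535 probes, 200 of them altered): 95% of changes of 2-fold were called, 99% of those of 4-fold, and 12 unaltered probes. Whether these rates hold on the arrays themselves was not tested. With 1 array left out, the calls on the arrays ran from 7 to 7335 probes. The number of arrays limits the precision.

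Groups came from the sample titles. The members and lists were chosen with earlier results of these data known. Named are the called members, a fixed set of central members, and called genes of the wider list, at most 15. From the wider list VDAC1, VDAC2 and CHUK are named outside this rule. Same-numbered arrays correlated, after removal of the group means, at 0.349, 0.162 and 0.296 over the tested probes. Each was over 0.1, the threshold for taking the numbers as pairs, although alone replicate 2 correlated more with mixed replicate 3 (0.238). The replicate number is also the position on the slide. The reported fit has no term for these pairs, so its p-values and intervals are unpaired. The replicate block is the paired fit, in which TRADD is not called and TNFSF10 and BIRC3 are. Alternatives were the replicate block, normexp (offset 50), quantile and spike-in scaling, other filters, the deposited table, the methods' t-test, the mean over probes and each array left out. A gene of the wider list and a marker are not reported here and are left out of the counts. A search of promoters and a match of probes to proteins were not run.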

Additional observations from a re-analysis of the deposited data

How the results depend on the processing

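The differences of CYCS, TRADD, TNFSF10, BIRC3, BAD, FAS and the second CFLAR probe kept their direction under every alternative run for them. Scaling to 8 spike-in probes lowered the median of all tested probes to -0.17 (from 0.00) and that of the members to -0.18. With it 949 probes, 1 member and 1 gene of the wider list were called, 30.2% of the called probes were higher in place of 49.0%, and BCL2L1 (-0.14), BCL2L11 (-0.048), XIAP (-0.11), RIPK1 (-0.036), BID (-0.12), CASP10 (-0.072) and TNFRSF1A (-0.14) turned below 0. Without the filter on dim probes the calls were 12 probes, 0 members and 0 wider genes, with 5 members and 7821 of 43603 probes at an unadjusted p under 0.05. The methods' t-test gave 826, 1 and 4. With the replicate block 2825 probes, 3 members (CYCS, TNFSF10 and BIRC3, so 1 of those called without it) and 7 wider genes (5 of those called without it) were called. Quantile normalization turned CASP6 to 0.015. The members' median was -0.051 with normexp, which turned CASP8 to 0.0052 and called 3 members, and -0.060 with the mean over probes, which turned BCL2L1 to -0.097, CASP2 to -0.042, TNFRSF1A to -0.031 and BID to -0.0020. With 1 array left out, the calls ran from 7 to 7335 probes, 0 to 7 members and 0 to 17 wider genes, the members' median from -0.053 to -0.021, CASP8 from -0.030 to 0.010, BCL2L1 from -0.0012 to 0.043 and XIAP from -0.0029 to 0.081, and the cause was not tested. The highest counts were without alone replicate 1, and the fewest probes were called without alone replicate 3. The planned block for slide and scan could not be fitted because neither slide held arrays of both groups.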
